A study of Mus musculus with 6 samples.

Results

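Thioredoxin, peroxiredoxin and glutathione peroxidase genes of the mouse testis, with the related Nme5, were chosen by name and matched to the Ensembl identifiers of the counts through the symbols of GENCODE mouse release 21. All 10 of 10 genes were found among the 55536 genes counted and all 10 were among the 21465 that passed the filter on low counts. They are Txndc2, Txndc8, Txnrd3, Txnrd1, Gpx4, Gpx1, Prdx4, Prdx1, Prdx6 and Nme5. The counts come from whole testis poly(A)+ RNA of 3 KOStra8 mice and 3 HETStra8 mice, all 7 weeks old, with 1 library for each mouse. KOStra8 mice have a floxed and a deleted allele of Sel1L, which encodes an adaptor of ER-associated degradation (ERAD), and carry Stra8-Cre, in which a promoter of male germ cells drives the Cre recombinase. In the study's definition, HETStra8 covers both Cre carriers whose floxed allele faces a wild-type one and animals without Cre whose floxed allele faces a deleted one. The labels describe the HETStra8 littermates as Sel1Lflox/∆ and give no genotype per mouse, so no HETStra8 mouse can be taken as wild-type. By the study's staining, SEL1L protein persists in spermatogonia and Sertoli cells of KOStra8 mice, so whole-testis RNA mixes cells with and without the protein.

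Thioredoxins carry a pair of catalytic cysteines that reduce disulphides in other proteins, and thioredoxin reductases recharge them with electrons from NADPH. Peroxiredoxins use a reactive cysteine, and glutathione peroxidases usually a selenocysteine, to reduce peroxides. Male germ cells have their own versions of some of these enzymes. Chromatin packing and the building of the sperm tail both rely on controlled disulphide formation. GPX4 becomes a structural part of the sperm midpiece besides its role against lipid peroxides. The ER, where SEL1L acts, forms disulphides too, and PRDX4 is its resident peroxiredoxin.

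The catalytic sites are shown because they separate the 3 chemistries of the group. In the coding strand of GENCODE release 21 on GRCm38, capitals mark the TGA codon that is read as selenocysteine, which lies at codon 73 of 198 in Gpx4 (chromosome 10, 80054737 to 80054739), at codon 47 of 202 in Gpx1 (chromosome 9, 108339451 to 108339453), at codon 614 of 616 in Txnrd3 (chromosome 6, 89674789 to 89674791) and at codon 498 of 500 in Txnrd1 (chromosome 10, 82896037 to 82896039), counted with the stop codon.
Gpx4: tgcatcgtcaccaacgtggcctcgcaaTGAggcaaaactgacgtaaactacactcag
Gpx1: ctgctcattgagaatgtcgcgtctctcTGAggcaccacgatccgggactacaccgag
Txnrd3: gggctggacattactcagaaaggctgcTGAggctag
Txnrd1: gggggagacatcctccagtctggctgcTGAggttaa
In both reductases the TGA stands directly before the last sense codon, and in both peroxidases it lies inside the reading frame.

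The germ cell thioredoxins need no selenium, and capitals mark the codons of their catalytic cysteine pair, at chromosome 17, 65637741 to 65637752 on the minus strand for Txndc2 and at chromosome 4, 58007099 to 58007110 on the minus strand for Txndc8.
Txndc2: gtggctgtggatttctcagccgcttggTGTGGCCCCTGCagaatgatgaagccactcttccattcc
Txndc8: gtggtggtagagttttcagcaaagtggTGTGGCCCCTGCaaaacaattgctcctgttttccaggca
The pair is spelled by the same 12 bases, TGTGGCCCCTGC, in both genes. It begins at codon 477 of 551 in Txndc2 and at codon 58 of 154 in Txndc8, whose coding sequence is shorter and lacks the repeat region that precedes the thioredoxin domain in Txndc2.

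For the peroxiredoxins, capitals mark the codon of the peroxidatic cysteine, and Prdx6b, another gene of the Prdx6 type, is shown for comparison.
Prdx4: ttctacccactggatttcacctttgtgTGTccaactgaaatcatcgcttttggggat
Prdx1: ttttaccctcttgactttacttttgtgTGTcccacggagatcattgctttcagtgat
Prdx6: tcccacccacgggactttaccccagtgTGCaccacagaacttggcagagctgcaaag
Prdx6b: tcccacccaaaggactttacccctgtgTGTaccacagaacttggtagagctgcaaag
These codons lie at chromosome X, 155332460 to 155332462 (minus strand) in Prdx4, at chromosome 4, 116691823 to 116691825 (plus strand) in Prdx1, at chromosome 1, 161247368 to 161247370 (minus strand) in Prdx6 and at chromosome 2, 80292987 to 80292989 (plus strand) in Prdx6b. Aligned coding sequences were identical at 64.5% of 597 bases for Prdx4 and Prdx1, at 68.5% of 1500 bases for Txnrd3 and Txnrd1, and at 92.9% of 675 bases for Prdx6 and Prdx6b. The longest identical run was 17 bases for Prdx4 and Prdx1, 19 bases for Txnrd3 and Txnrd1, and 53 bases for Prdx6 and Prdx6b.

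Sequence shared with other genes bears on how surely reads can be assigned. Of the 50-base stretches in its transcripts, Gpx4 shared 34.7% with other genes, chiefly the pseudogene Gpx4-ps2, and Prdx1 shared 8.29%, chiefly with the pseudogenes Gm21399 and Gm7204. Counts for these 2 genes are therefore less certain than the rest. Gpx4-ps2 stood at 1.86% to 2.35% of the Gpx4 level in the 6 libraries, and Gm21399 and Gm7204 had at most 5 counts in any library. Prdx6 shared 0.136% with Prdx6b, the other 7 genes shared none, and no gene of the group overlapped the exons of another gene.

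The libraries summed to between 28875108 and 36526695 counts, and single genes of the group had from 443 counts (Gpx1) to 27444 counts (Gpx4) in a library. Counting error alone is thus at most 4.75% of a level (Gpx1) and at least 0.604% (Gpx4). A level is a gene's count in a library of a standard size (CPM), after TMM normalization. KOStra8 was compared with HETStra8 by edgeR's quasi-likelihood test over all 21465 genes with Benjamini-Hochberg adjustment, at the cutoffs the study used, a fold of 2 together with an adjusted p of 0.01. The targeted gene Sel1l (chromosome 12, 91806043 to 91849157) stood at 49.3, 47.6 and 42.4 CPM in HETStra8 mice 1 to 3 and at 24.2, 22.0 and 20.3 CPM in KOStra8 mice 1 to 3, without overlap. Its log2 fold change was -1.07 ± 0.10 (SE), and edgeR's quasi-likelihood test gave an adjusted p of 0.00061, which rose to 0.0132 without KOStra8 mouse 2 and to 0.012 without KOStra8 mouse 3.

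None of the 10 genes differed between the genotypes at the adjusted p of 0.01 in edgeR's quasi-likelihood test, and none did at an unadjusted p of 0.05. Every 95% interval of their fold changes lay between 0.712-fold and 1.18-fold, inside the cutoff of 2, so that for the germ cell thioredoxins, the reductases and Gpx4 alike a change of that size lay outside the interval. Adjusted p ranged from 0.467 (Gpx4) to 0.939 (Txndc8). Over all genes tested, 4 (0.0186%) passed the adjusted p, and at the unadjusted p 7.13% were higher and 5.12% lower in KOStra8 testes. The study reported more genes past its fold and adjusted p cutoffs, with a test that its methods do not name. In DESeq2, 132 genes passed the adjusted p here. The counts of 4 and 132 apply the adjusted p alone, without the fold cutoff. The 132 can therefore not be set against the study's number. The log2 fold change was below 0 for 8 of the 10 genes, against 51.5% of all genes, and its median was -0.08, against -0.01 over all genes. Leaving out HETStra8 mouse 1 brought the median to -0.03, and leaving out KOStra8 mouse 1 to -0.04. In whole testis, fewer cells of a type and less RNA per cell cannot be told apart.

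**Figure D1:**
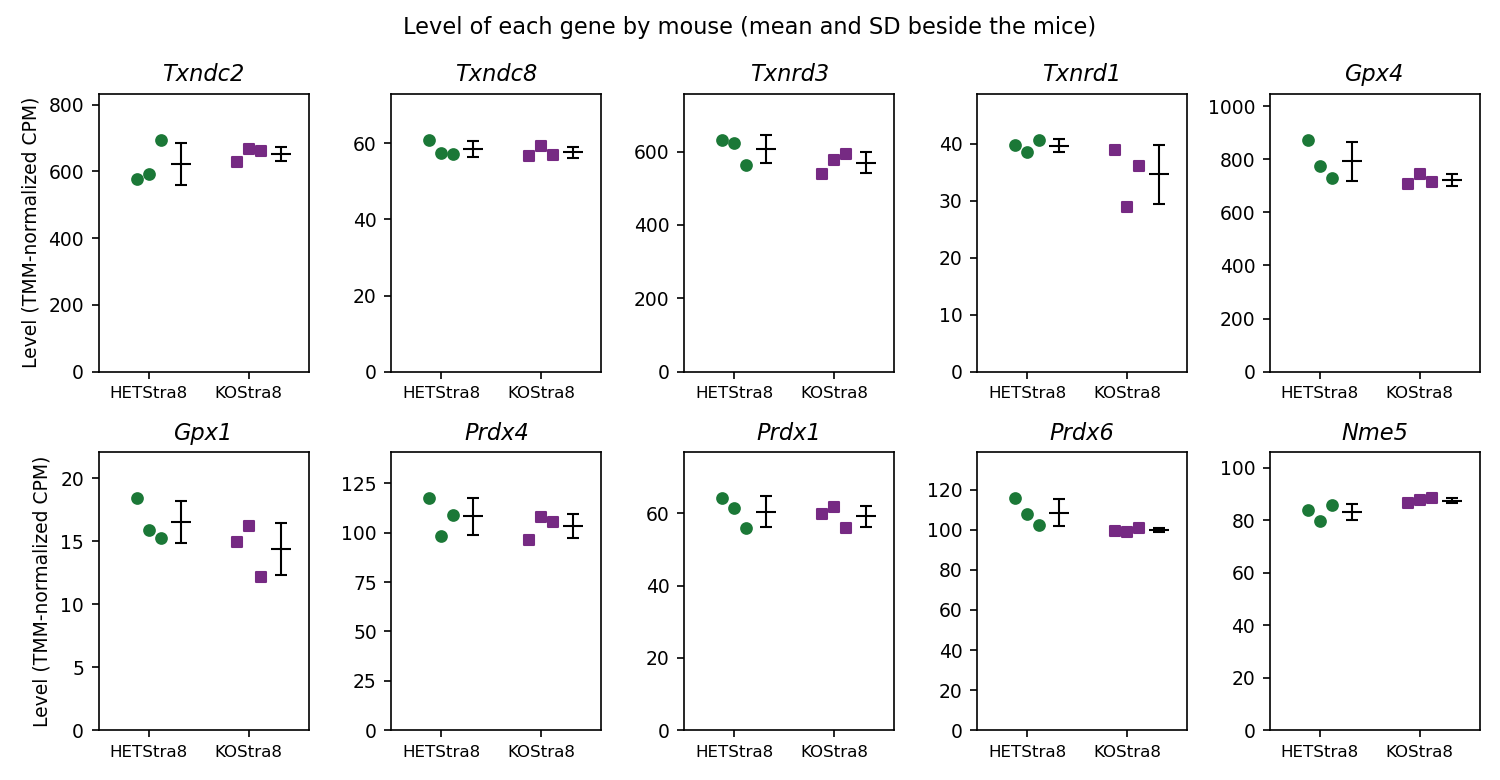
Level of each gene in TMM-normalized CPM (vertical axis, from 0) in the 3 HETStra8 mice (green circles, mice 1 to 3 from left to right) and the 3 KOStra8 mice (purple squares, likewise), with the mean and SD of each group beside the mice. The groups overlap for all genes except Prdx6, where the KOStra8 mice (98.8 to 101 CPM) lie below the HETStra8 mice (102 to 116 CPM), and Nme5, where they lie above (86.5 to 88.3 against 79.7 to 85.9 CPM).

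For the germ cell thioredoxins the genotypes overlapped. Txndc2 (ENSMUSG00000050612, chromosome 17, 65637507 to 65642168), a thioredoxin of the fibrous sheath of the sperm tail, stood at 578, 593 and 695 CPM in HETStra8 mice 1 to 3 and at 627, 668 and 662 CPM in KOStra8 mice 1 to 3. HETStra8 mouse 3 was the highest of all and the other 2 HETStra8 mice the lowest, so the groups overlapped. The means were 622 ± 63.4 and 652 ± 21.9 CPM (SD, n = 3), with a log2 fold change of 0.07 (95% interval -0.10 to 0.23). Without HETStra8 mouse 3 the log2 fold change was 0.16, with an unadjusted p of 0.0200 and an adjusted p of 0.162 in edgeR's quasi-likelihood test, whereas it was 0.02 without HETStra8 mouse 1, 0.03 without HETStra8 mouse 2 and 0.10 without KOStra8 mouse 1.

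Txndc8 (ENSMUSG00000038709, chromosome 4, 57984027 to 58009124), a thioredoxin of spermatids, stood at 60.9, 57.4 and 57.2 CPM in HETStra8 and at 56.8, 59.3 and 56.9 CPM in KOStra8 mice. All 6 mice lay within a few CPM of each other, and the groups overlapped. The means were 58.5 ± 2.12 and 57.6 ± 1.41 CPM (SD, n = 3), and the log2 fold change of -0.02 (95% interval -0.19 to 0.15) was the nearest to 0 of the group. That log2 fold change was -0.10 with the GC and length offsets described below.

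Among the reductases, Txnrd3 (ENSMUSG00000000811, chromosome 6, 89643988 to 89675529) encodes thioredoxin-glutathione reductase, the testis form, which also reduces glutathione disulphide. Its levels were 632, 625 and 564 CPM in HETStra8 and 538, 578 and 595 CPM in KOStra8 mice. HETStra8 mice 1 and 2 lay above all KOStra8 mice and mouse 3 lay among them. The means were 607 ± 37.5 and 570.3 ± 29.2 CPM (SD, n = 3), with a log2 fold change of -0.09 (95% interval -0.24 to 0.06).

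Txnrd1 (ENSMUSG00000020250, chromosome 10, 82833951 to 82897712), the cytosolic reductase of most cells, stood at 39.8, 38.5 and 40.7 CPM in HETStra8 and at 39.0, 28.9 and 36.0 CPM in KOStra8 mice. KOStra8 mouse 2 was low and KOStra8 mouse 1 lay within the HETStra8 range. The means were 39.7 ± 1.08 and 34.6 ± 5.19 CPM (SD, n = 3), and the log2 fold change was -0.20 (95% interval -0.43 to 0.04). Leaving out KOStra8 mouse 2 brought it to -0.08, and leaving out KOStra8 mouse 1 to -0.28, with an unadjusted p of 0.0379 and an adjusted p of 0.514 in edgeR's quasi-likelihood test.

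Gpx4 (ENSMUSG00000075706, chromosome 10, 80047166 to 80056439), the peroxidase of phospholipid hydroperoxides, stood at 873, 775 and 731 CPM in HETStra8 and at 706, 746 and 714 CPM in KOStra8 mice. HETStra8 mouse 1 was far above the rest, and KOStra8 mouse 2 exceeded HETStra8 mouse 3. The means were 793 ± 72.96 and 722 ± 20.9 CPM (SD, n = 3), with a log2 fold change of -0.14 (95% interval -0.29 to 0.02) and the smallest unadjusted p of the group, 0.0849 in edgeR's quasi-likelihood test. That log2 fold change was -0.06 without HETStra8 mouse 1 and -0.18 without HETStra8 mouse 3, the latter with an unadjusted p of 0.0175 and an adjusted p of 0.151 in the same test.

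Gpx1 (ENSMUSG00000063856, chromosome 9, 108338903 to 108340343), the general cytosolic glutathione peroxidase, stood at 18.4, 15.9 and 15.3 CPM in HETStra8 and at 14.9, 16.2 and 12.1 CPM in KOStra8 mice. The highest value belonged to a HETStra8 mouse and the lowest to a KOStra8 mouse, with overlap between. The means were 16.5 ± 1.65 and 14.4 ± 2.06 CPM (SD, n = 3), and the log2 fold change of -0.20 had the widest interval of the group (95% interval -0.49 to 0.09). It was -0.09 without KOStra8 mouse 3, -0.11 without HETStra8 mouse 1 and -0.08 with the GC and length offsets described below.

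Prdx4 (ENSMUSG00000025289, chromosome X, 155323918 to 155340754), which removes hydrogen peroxide inside the ER, works in the compartment that ERAD serves. It stood at 117, 98.3 and 109 CPM in HETStra8 and at 96.5, 108 and 106 CPM in KOStra8 mice, and the groups overlapped almost fully. The means were 108 ± 9.56 and 103 ± 6.11 CPM (SD, n = 3), with a log2 fold change of -0.07 (95% interval -0.25 to 0.12). That value was -0.0043 without HETStra8 mouse 1, -0.01 without KOStra8 mouse 1 and -0.13 without HETStra8 mouse 2.

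Prdx1 (ENSMUSG00000028691, chromosome 4, 116685544 to 116700822), the abundant cytosolic peroxiredoxin of most cells, stood at 64.2, 61.5 and 55.9 CPM in HETStra8 and at 60.0, 61.7 and 56.0 CPM in KOStra8 mice. The KOStra8 values fell inside the HETStra8 range. The means were 60.5 ± 4.23 and 59.2 ± 2.91 CPM (SD, n = 3), with a log2 fold change of -0.03 (95% interval -0.22 to 0.15).

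Prdx6 (ENSMUSG00000026701, chromosome 1, 161240112 to 161251219), the peroxiredoxin that also acts on phospholipids, stood at 116, 108 and 102 CPM in HETStra8 and at 99.6, 98.8 and 101 CPM in KOStra8 mice. It was the only gene of the group whose KOStra8 mice all lay below the HETStra8 mice, a pattern that 8.43% of all tested genes had. The means were 109 ± 6.72 and 99.7 ± 0.991 CPM (SD, n = 3), and the log2 fold change of -0.12 (95% interval -0.29 to 0.04) had an adjusted p of 0.531 in edgeR's quasi-likelihood test.

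Nme5 (ENSMUSG00000035984), a nucleoside diphosphate kinase family protein of the sperm tail axoneme, stood at 83.8, 79.7 and 85.9 CPM in HETStra8 and at 86.5, 87.6 and 88.3 CPM in KOStra8 mice. All KOStra8 mice lay above the HETStra8 mice, as for 9.33% of all tested genes. The means were 83.1 ± 3.17 and 87.5 ± 0.899 CPM (SD, n = 3), and the log2 fold change was 0.07 (95% interval -0.09 to 0.24), at an adjusted p of 0.730 in edgeR's quasi-likelihood test. With 1 gene of 10 in each direction, separation of the groups was about as frequent as over all genes.

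HETStra8 mouse 1 had the highest level of 7 of the 10 genes, and KOStra8 mouse 1 had the lowest level of 4. The share of all genes at an extreme in these mice is not given here, so these counts cannot be read as a trait of the group. The difference between genotypes also followed base composition: across 21457 genes, the log2 fold change and GC content had a Spearman rho of -0.46. This is a description across genes that share the same 6 libraries, and its source was not tested. With 3 mice against 3, differences between libraries and between genotypes cannot be told apart here. The comparison was therefore repeated with offsets for GC content and transcript length, which may also remove differences of genotype. The GC-rich Gpx4 (60.2% GC) then stood at 786, 752 and 729 CPM in HETStra8 and at 758, 733 and 777 CPM in KOStra8 mice. The means became 756 ± 28.3 and 756 ± 22.2 CPM (SD, n = 3), and the log2 fold change moved from -0.14 to 0.00026 (95% interval -0.11 to 0.11).

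The GC-poor Prdx1 (42.3% GC) moved the other way. Its levels with the offsets were 71.9, 64.8 and 54.9 CPM in HETStra8 and 57.9, 58.9 and 52.4 CPM in KOStra8 mice, still overlapping. Its log2 fold change went from -0.03 to -0.18 (95% interval -0.38 to 0.02). Txnrd3 (52.3% GC) moved from -0.09 to 0.0058, while Txndc2 stood at 0.09 and Prdx4 at -0.10. With the offsets, 6 of 10 genes were below 0 and no group stayed separate for Prdx6 or Nme5. No gene reached an unadjusted p of 0.05, which 3.86% of all genes did upwards and 3.82% downwards, and the smallest adjusted p was 0.708 in edgeR's quasi-likelihood test. The members whose direction changed were Gpx4 and Txnrd3.

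**Figure D2:**
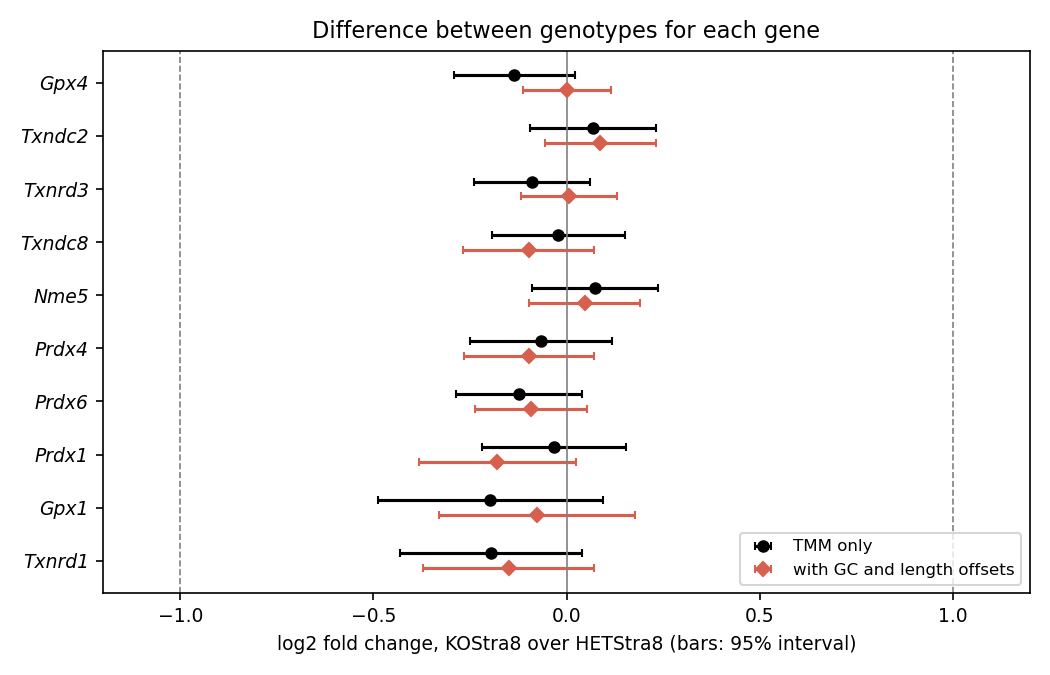
Log2 fold change of KOStra8 over HETStra8 for each gene (horizontal axis) with its 95% interval, from TMM normalization alone (black circles) and with GC and length offsets (red diamonds), and dashed lines at a fold of 2 in either direction. Every interval crosses 0 and stays between -0.49 and 0.24, and Gpx4 and Prdx1 move in opposite directions with the offsets.

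Levels can be compared between genes only per length, so CPM were divided by the kilobases of all annotated exons of a gene. In HETStra8 testes the order was Gpx4 at 459.9 ± 42.3, Txndc2 at 313 ± 31.9 and Txnrd3 at 214 ± 13.2 CPM per kilobase (SD, n = 3). The germ cell thioredoxin Txndc8 followed at 85.5 ± 3.09 and Nme5 at 72.03 ± 2.75 CPM per kilobase. The peroxiredoxins came next, with Prdx4 at 51.4 ± 4.54, Prdx6 at 22.6 ± 1.40 and Prdx1 at 19.9 ± 1.39 CPM per kilobase. Gpx1 at 11.5 ± 1.15 and Txnrd1 at 5.60 ± 0.153 CPM per kilobase closed the order. The ranges of neighbours did not overlap among the HETStra8 mice, and the order was the same in KOStra8 testes. Over all 6 mice, Prdx6 and Prdx1 overlapped.

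The length chosen matters for this order. With the longest transcript in place of all exon bases, a choice added after the data were seen, Gpx4 stood at 797, Prdx4 at 106, Prdx6 at 42.5 and Txnrd1 at 11.0 CPM per kilobase in HETStra8 testes. Prdx4 then ranked 4, above Nme5 (97.9) and Txndc8 (94.3), with overlapping ranges between Prdx4 and Nme5 and between Nme5 and Txndc8. The 3 highest and the 4 lowest genes kept their places.

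**Figure D3:**
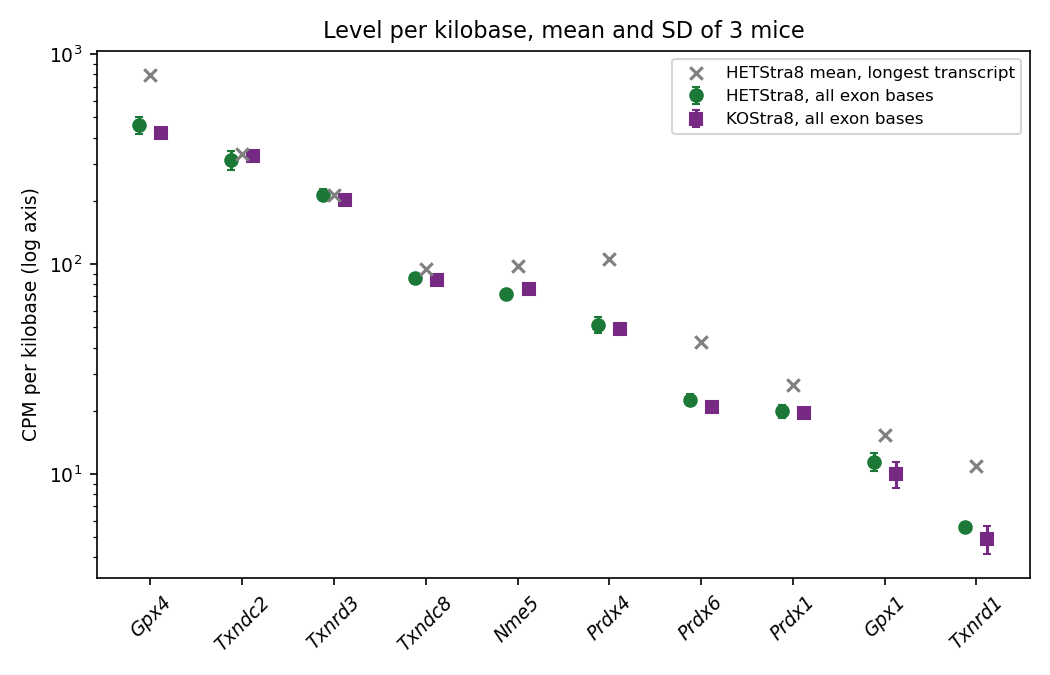
CPM per kilobase (vertical log axis) for each gene, ordered by the HETStra8 mean, with mean and SD of 3 HETStra8 (green circles) and 3 KOStra8 mice (purple squares) over all exon bases, and the HETStra8 mean over the longest transcript (grey crosses). Gpx4, Txndc2 and Txnrd3 lie highest and Txnrd1 lowest with either length, and the genotypes lie side by side throughout.

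Ratios between related genes within a library do not depend on library size. The Txnrd3 level per kilobase was 39.7, 40.5 and 34.6 times that of Txnrd1 in HETStra8 and 34.5, 50.02 and 41.2 times in KOStra8 mice, and the groups overlapped. KOStra8 mouse 2, which had the low Txnrd1 level, gave the highest ratio. The difference of the log2 ratio was 0.12 (exact permutation test, two-sided, p = 0.5, adjusted p = 1 over 4 ratios) and changed sign without KOStra8 mouse 2. With 3 mice against 3 this test cannot give a p below 0.1. The ratio itself depends on the lengths used: with the longest transcripts, its geometric mean over the 6 mice was 20.3, that of Gpx4 to Gpx1 53.0, that of Prdx4 to Prdx1 3.95 and that of Txndc2 to Txndc8 3.65. The differences between genotypes do not depend on the length a level is divided by, but they do move with the GC and length offsets. For Txnrd3 to Txnrd1 the log2 difference was 0.17 with these offsets.

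The Gpx4 to Gpx1 ratio per kilobase was 39.7, 40.8 and 40.0 in HETStra8 and 39.6, 38.6 and 49.2 in KOStra8 mice. The HETStra8 mice agreed closely and KOStra8 mouse 3, with the lowest Gpx1 level, stood apart. The log2 difference was 0.07 (exact permutation test, two-sided, p = 1), and it changed sign without KOStra8 mouse 3.

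The ratio of the ER peroxiredoxin Prdx4 to the cytosolic Prdx1 was 2.64, 2.31 and 2.82 in HETStra8 and 2.32, 2.53 and 2.73 in KOStra8 mice. These ranges nearly coincided, with a log2 difference of -0.03 (exact permutation test, two-sided, p = 0.8) that was 0.08 with GC and length offsets, 0.03 without HETStra8 mouse 3 and 0.03 without KOStra8 mouse 1. Txndc2 stood at 3.27, 3.56 and 4.18 times Txndc8 in HETStra8 and at 3.80, 3.88 and 4.01 times in KOStra8 mice. The KOStra8 mice lay inside the HETStra8 range, with a log2 difference of 0.09 (exact permutation test, two-sided, p = 0.5) that was 0.01 without HETStra8 mouse 1, 0.19 without HETStra8 mouse 3 and 0.19 with the offsets.

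The sum of Sertoli cell markers (9 genes) ranged from 1045 to 1249 CPM in HETStra8 and from 866 to 989.6 CPM in KOStra8 mice. Of the 9 genes, 5 were lower at an unadjusted p of 0.05, against 5.12% of all genes. With GC and length offsets 4 were, against 3.82% of all genes. The sum of Leydig cell markers (6 genes) ranged from 487 to 733 and from 409.96 to 527 CPM, and that of elongating spermatid markers (9 genes) from 16749.5 to 16861 and from 15031 to 16804 CPM. Round spermatid markers (7 genes) summed to between 1055 and 1136 CPM and between 1015 and 1113 CPM, spermatocyte markers (8 genes) to between 2430.5 and 2492 CPM and between 2482 and 2667 CPM, and spermatogonial markers (7 genes) to between 86.9 and 94.1 CPM and between 82.3 and 91.5 CPM. At the same unadjusted p, 1 of 6 Leydig, 2 of 9 elongating spermatid and 1 of 7 round spermatid markers were lower. Of spermatocyte markers 1 of 8 was higher, against 7.13% of all genes, and none of 7 spermatogonial markers was past it. Among other somatic lists, 1 of 5 peritubular myoid, 1 of 6 macrophage and 0 of 5 endothelial markers were lower. With the offsets, 1 elongating spermatid and 1 Leydig marker were lower, against 3.82% of all genes. No spermatogonial, spermatocyte, round spermatid, myoid, macrophage or endothelial marker was then past the unadjusted p. All germ cell lists, as well as Sertoli and Leydig lists, were detected in every library. Their part in the levels above was not tested.

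Another 95 genes of the same pathways were examined from lists, of which 92 were tested. None passed the adjusted p of 0.01 in edgeR's quasi-likelihood test, while 4 (4.35%) were higher and 8 (8.70%) lower in KOStra8 testes at an unadjusted p of 0.05, against 7.13% and 5.12% of all genes. Their median log2 fold change was -0.07. With GC and length offsets, none was higher and 7 were lower, against 3.86% and 3.82% of all genes. Of the 92, 6 were higher and 10 lower without overlap between the groups, as were 9.33% and 8.43% of all genes. Below, Sod1, Slc7a11, Pstk, Hmox1, Keap1, Slc3a2 and Acsl4 were named only because their unadjusted p was small and their groups did not overlap. Their separation was thus set by the choice and is no result.

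In the thioredoxin system list, 1 of 20 genes was higher and 1 lower at the unadjusted p, against 7.13% and 5.12% of all genes. The median log2 fold change was -0.05. The higher gene was Nme8, a sperm thioredoxin with nucleoside diphosphate kinase domains, and the lower was Txndc5, an ER thioredoxin of the protein disulphide isomerase type. Both were named after their values were seen, because they were the only genes of the list past that p. Nme8 stood at 124, 156 and 183 CPM in HETStra8 and at 185, 178 and 201 CPM in KOStra8 mice, with overlap, and its log2 fold change was 0.28 ± 0.12 (SE) at an adjusted p of 0.381 in edgeR's quasi-likelihood test. Txndc5 stood at 40.8, 37.3 and 27.4 CPM and at 30.6, 27.4 and 25.3 CPM, with overlap, and a log2 fold change of -0.34 ± 0.14 (SE) at an adjusted p of 0.354 in the same test. Its exons overlap Bmp6 on the other strand, and the strand setting of the counts is not given in the sources used here. With the offsets Nme8 was 0.17 and Txndc5 -0.24, neither past the unadjusted p, and the only gene of the list past it was then Txndc9, at -0.26 (against -0.05 without them) and an adjusted p of 0.340 in edgeR's quasi-likelihood test. Of the other 5 tested nucleoside diphosphate kinase genes, none was past the unadjusted p, and the median was -0.08.

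Among peroxiredoxins, superoxide dismutases and catalase, none of 9 genes was higher and 2 were lower at the unadjusted p. Over all genes, 7.13% were higher and 5.12% lower. The median log2 fold change was -0.20. Sod1, the cytosolic superoxide dismutase, stood at 140.4, 141 and 146 CPM in HETStra8 and at 125, 122 and 117 CPM in KOStra8 mice. The groups did not overlap, and the log2 fold change was -0.23 ± 0.07 (SE), for which edgeR's quasi-likelihood test gave an adjusted p of 0.243. It was also -0.23 with the offsets. The other lower gene was Srxn1 (sulfiredoxin, which repairs overoxidized peroxiredoxins), at -0.29. Prdx6b, whose site is printed above, was named after its values were seen. It stood at 436, 443 and 432 CPM in HETStra8 and at 458, 467 and 466 CPM in KOStra8 mice. Per kilobase it was 6.28 to 7.87 times Prdx6 in the 6 libraries, or 3.34 to 4.19 times with the longest transcripts. Its groups did not overlap, and the log2 fold change was 0.08 (95% interval -0.05 to 0.22), or -0.09 with the offsets.

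Among glutathione peroxidases and glutathione synthesis genes, 1 of 10 tested genes was higher and none lower at the unadjusted p. Over all genes, 7.13% were higher and 5.12% lower. The median log2 fold change was -0.05. The higher gene was Slc7a11, the cystine carrier of the xc- exchanger, at 4.04, 4.16 and 4.38 CPM in HETStra8 and at 6.41, 6.98 and 5.01 CPM in KOStra8 mice, without overlap. Its log2 fold change was 0.55 ± 0.19 (SE) at an adjusted p of 0.285 in edgeR's quasi-likelihood test, and 0.26 with the offsets. In the selenoprotein list, 1 of 22 genes was higher and none lower, against the same shares of all genes, with a median of -0.02. That gene was Pstk, a kinase in the synthesis of selenocysteine tRNA, at 3.18, 3.51 and 3.51 CPM in HETStra8 and 4.27, 5.77 and 4.60 CPM in KOStra8 mice, without overlap. Its log2 fold change was 0.52 ± 0.20 (SE) at an adjusted p of 0.338 in the same test, and 0.31 with the offsets. Pstk overlaps Ikzf5 on the other strand, so reads of that gene may be among its counts.

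In the list of the NRF2 pathway and NADPH supply, none of 16 genes was higher and 4 were lower at the unadjusted p. Over all genes, 7.13% were higher and 5.12% lower. With the offsets 0 were higher and 3 lower, against 3.86% and 3.82% of all genes. Without overlap between the groups, 1 was higher and 5 were lower, against 9.33% and 8.43% of all genes. The median log2 fold change was -0.19, or -0.12 with the offsets. Hmox1, haem oxygenase, stood at 8.59, 9.99 and 9.36 CPM in HETStra8 and at 6.47, 6.94 and 5.45 CPM in KOStra8 mice. Keap1, which holds NRF2 back, stood at 88.6, 80.0 and 69.6 CPM in HETStra8 and at 64.8, 66.9 and 58.0 CPM in KOStra8 mice. Neither overlapped between the groups. The log2 fold changes were -0.57 ± 0.16 and -0.33 ± 0.10 (SE), with adjusted p of 0.197 and 0.230 in edgeR's quasi-likelihood test, and were -0.48 and -0.18 with the offsets. The other 2 lower genes were Ftl1 (ferritin light chain), which shares 50.9% of its 50-base stretches with pseudogenes and other genes, at -0.40 and Taldo1 (transaldolase) at -0.35.

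In the list of lipid peroxidation and ferroptosis, 1 of 10 genes was higher and 1 lower at the unadjusted p. Over all genes, 7.13% were higher and 5.12% lower. The median log2 fold change was -0.06. Slc3a2, the partner chain of Slc7a11, stood at 114, 98.5 and 89.7 CPM in HETStra8 and at 82.7, 82.6 and 70.8 CPM in KOStra8 mice. Acsl4, which makes the polyunsaturated lipid precursors that GPX4 protects, stood at 18.7, 17.5 and 18.3 CPM in HETStra8 and at 23.0, 21.8 and 25.8 CPM in KOStra8 mice. Neither overlapped between the groups. The log2 fold changes were -0.35 ± 0.10 and 0.37 ± 0.11 (SE), with adjusted p of 0.193 and 0.217 in edgeR's quasi-likelihood test. They were -0.24 and 0.08 with the offsets, so that for Acsl4 little of the difference remained. Of the Sertoli and Leydig cell markers, 5 of 9 and 1 of 6 were lower at the unadjusted p, against 5.12% of all genes. None passed the adjusted p of 0.01 in the same test. The sums, and the other cell types, are given above. The part of cell types in the lower values was not tested.

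**Figure D4:**
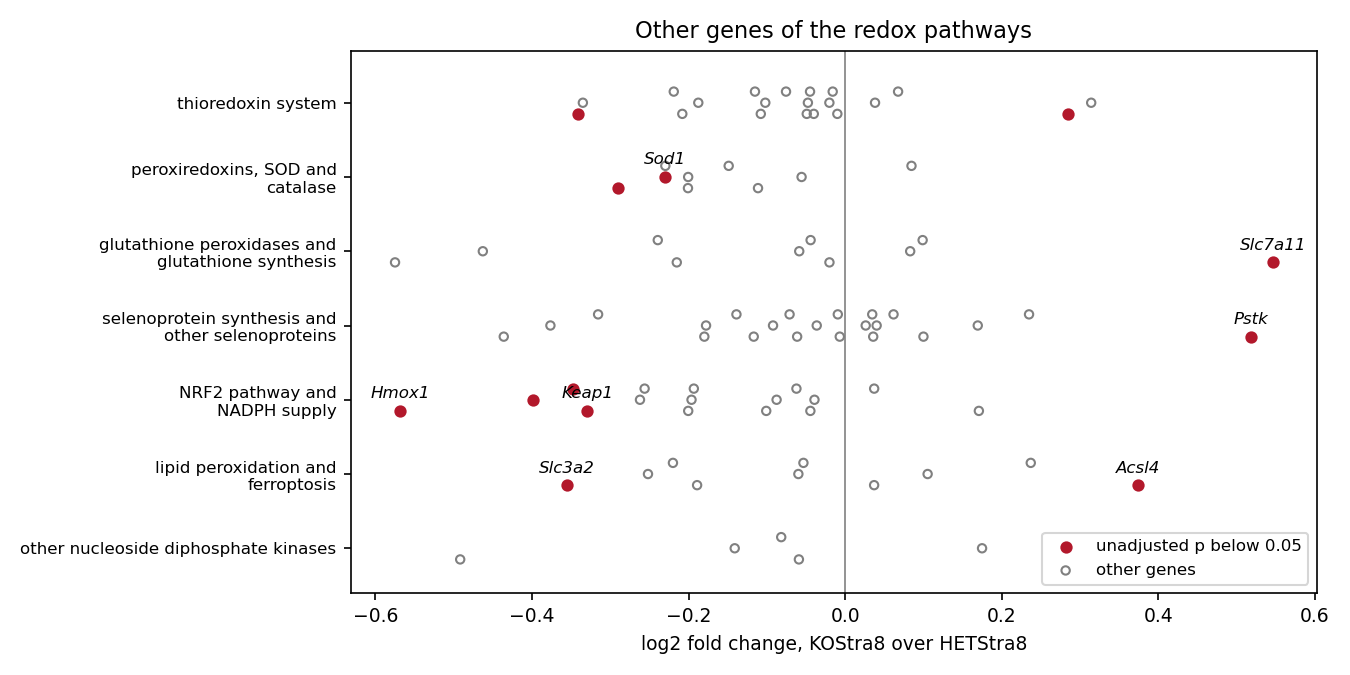
Log2 fold change of KOStra8 over HETStra8 (horizontal axis) for the 92 tested genes of the pathway lists, 1 row per list, with the 12 genes at an unadjusted p below 0.05 in red and the others as open grey circles. Red points lie on both sides of 0, from Hmox1 at -0.57 to Slc7a11 at 0.55, and none passed the adjusted p of 0.01.

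The promoters of the group were searched for the core of the antioxidant response element, TGACNNNGC on either strand, through which NRF2 acts on many redox genes. RefSeq promoter windows of 300 bases around the start (GRCm38.p6) were used for 8 of the 10 genes, and 3 of them (Txndc2, Txnrd1 and Prdx1) held a match in at least 1 window, or 3 of 14 windows. Of all 32851 promoter windows, 12.4% held it. A match shows only that these letters occur in the window.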

How the data were processed

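Whole testes of 3 KOStra8 and 3 HETStra8 mice (7 weeks) were sequenced by the authors as poly(A)+ directional libraries, 1 per mouse. The authors deposited raw counts of reads per Ensembl gene, without normalization, for each mouse. The submitters' processing notes name STAR 2.7.1a, StringTie 2.0.4, featureCounts 1.6.0 and HTSeq without their roles, and mm10/GRCm38. All 55536 identifiers matched GENCODE mouse release 21, the source of symbols, lengths, GC content and coding sequences.

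The tests ran under edgeR 4.0.16 in R 4.3.3 (filterByExpr, TMM, robust quasi-likelihood fit, genotype only, two-sided F test, Benjamini-Hochberg adjustment over 21465 genes). The common biological coefficient of variation was 0.160. The steps were tested on simulated data. Alternatives were DESeq2 1.42.0, limma-voom (limma 3.58.1), other size factors and filters, the replicate number as a block, GC and length offsets (loess, span 0.3), and leaving out each mouse. Ratios used exact permutation tests.

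The genes, pathway lists and marker lists were chosen with earlier results of these data known. Named besides the 10 genes and Sel1l were, from each list, up to 2 genes per direction with the smallest p below 0.05, at least 1 CPM and no overlap between groups. Other genes were named after their values were seen.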

Additional observations from a re-analysis of the deposited data

How the results depend on the processing

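No gene of the group passed an adjusted p of 0.01 in any of 150 comparisons under 15 alternatives, where adjusted p ranged from 0.151 to 1.00, although the number of all genes past it was 4 in the analysis reported, 385 without a filter on low counts, 132 in DESeq2, 32 with the replicate block, 3 with GC and length offsets and 443 without HETStra8 mouse 3. The log2 fold change changed sign in 7 of the 150: for Gpx4 with GC and length offsets (0.00026, and 0.00050 with the replicate block added), for Txnrd3 (0.0058 and 0.0047), for Txndc8 without HETStra8 mouse 1 (0.0089) and for Prdx1 without HETStra8 mouse 1 (0.012) or KOStra8 mouse 3 (0.0067). With a mouse left out, Txndc8 ranged from -0.035 to 0.0089 and Prdx1 from -0.076 to 0.012. The cause was not tested. Leaving out each mouse gave 0 to 1 genes higher and 0 to 1 lower at an unadjusted p of 0.05 (1 each without HETStra8 mouse 3, 1 lower without KOStra8 mouse 1). The log2 ratio differences then ranged from -0.017 to 0.25 for Txnrd3 to Txnrd1, from -0.040 to 0.14 for Gpx4 to Gpx1, from -0.11 to 0.030 for Prdx4 to Prdx1 (0.080 with GC and length offsets) and from 0.013 to 0.19 for Txndc2 to Txndc8. The median of the group ranged from -0.10 to -0.03, and single genes that moved by over 1.5 times besides those named in the results were Txnrd3 (-0.04 without KOStra8 mouse 1), Prdx6 (-0.08 without HETStra8 mouse 1) and Nme5 (0.04 without HETStra8 mouse 2, 0.05 with the offsets). Txndc8 (-0.0087) and Prdx1 (-0.019) moved likewise with library totals in place of TMM. Of the pathway genes, 2 to 6 were higher and 5 to 15 lower when a mouse was left out (2 higher without HETStra8 mouse 1, 15 lower without HETStra8 mouse 3, 5 lower without KOStra8 mouse 3). With the offsets 0 were higher, and 1 with the replicate block added. Slc3a2 alone (adjusted p = 0.00883 in edgeR's quasi-likelihood test) passed the adjusted p without a filter on low counts. The shares of all genes at the unadjusted p with a mouse left out are not given here. The counts with a mouse left out, for the group and the pathways, therefore have no background to be read against.

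The labels do not say whether the replicate numbers pair the mice. Correlations of deviations from the group mean were -0.06, -0.05 and 0.11 for same-numbered mice. For mice with different numbers they ranged from -0.12 to 0.15. With 3 mice per group these values cannot show whether the mice are paired. With the replicate block the median log2 fold change of the group was -0.08, as in the analysis reported, and no gene of the group passed the adjusted p. Depth limits Gpx1 most. Counting intervals cover counting error only.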

Other observations

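Some redox genes varied between mice more than between genotypes. Gss, which makes glutathione, stood at 17.6 CPM in HETStra8 mouse 3 and 15.4 CPM in KOStra8 mouse 1, and at 5.42 to 7.07 CPM in the other 4 mice, and its exons overlap Acss2 on the other strand. Gpx3, the secreted glutathione peroxidase, ranged from 5.22 to 17.5 CPM in HETStra8 and from 4.25 to 9.76 CPM in KOStra8 mice. The epididymal gene Crisp1 stood at 7.00 CPM (220 counts) in HETStra8 mouse 1 and had at most 11 counts in the other libraries. Other epididymal genes did not share this: Lcn8 had 0 counts in all 6 libraries and Gpx5 had 0 in HETStra8 mouse 1. The source of the Crisp1 reads was not tested. Gpx2 had 0 counts in all 6 libraries. Nme3 also had 0, but 763 of its 876 exon bases overlap Mrps34 on the same strand, so reads from it may not have been assigned to it. Thioredoxin itself, Txn1, stood at 7.46 to 9.77 CPM over the 6 mice. These genes were named after their values were seen.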
